A study of Mus musculus with 6 samples.

Results

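The genes described here are the 10 Krueppel-like factor genes Klf2, Klf3, Klf4, Klf5, Klf6, Klf7, Klf9, Klf10, Klf13 and Klf15, taken by symbol from a table of read counts for 21526 gene symbols. All 10 were found, and all 10 passed the filter on low counts, as did 14600 genes in all. The table holds another 7 Klf symbols, which serve as a comparison. RNA was measured in epithelial cells released with EDTA from the gastric corpus of mice, without culture, in 3 libraries of normal stomach (Normal) and 3 of Yap-activated gastric cancer (Yap-activated). Normal mice were wild type, and the other group had the genotype CluCreERT2;R26rtTA;HA-Yap+, which combines a tamoxifen-dependent Cre, a doxycycline-dependent transactivator and an HA-tagged Yap transgene. The labels give both groups the same treatment: tamoxifen at 2 mg on each of 5 days, then doxycycline food for the last 14 days. The Cre is named for Clu, the gene that by usual nomenclature drives it. The labels give no age, sex or number of animals behind a library. The wild-type controls lack every allele of the other group, so that effects of CluCreERT2, R26rtTA and HA-Yap+ cannot be told apart.

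Krueppel-like factors are transcription factors that bind GC-rich and CACCC elements through a conserved set of zinc fingers at the C terminus, while their N-terminal parts differ and recruit different partners. Klf2, Klf4, Klf5, Klf6 and Klf7 are mostly known as activators that work with acetyltransferases, Klf3 as a repressor that binds CtBP, and Klf9, Klf10 and Klf13 as factors that recruit Sin3 corepressor complexes. In gut epithelium Klf4 is known for growth arrest and differentiation of surface cells and Klf5 for the proliferating compartment. Several of these genes are also known as early response genes or as hormone- and clock-controlled genes.

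Library totals ran from 25580734 to 48440033 counts. Yap1, the activated gene, stood at 100.3 to 106 CPM (read counts scaled to library size, here after TMM) in Normal and at 1468 to 3085 CPM in Yap-activated libraries. Markers of 4 corpus cell types were present in Normal and much lower in Yap-activated tissue. The summed level of 6 chief cell genes was 94602 to 151274 CPM in Normal and 166 to 202 CPM in Yap-activated libraries, with Lipf at 0 in every library. For 9 parietal genes the sums were 24521 to 32433 against 1004 to 1265 CPM, for 6 surface mucous genes 43652 to 50985 against 2370 to 3050 CPM, and for 6 enteroendocrine genes 606 to 817 against 23.3 to 42.3 CPM. Sums overlapped between the groups for 4 mucous neck genes, at 1952 to 3233 against 1580 to 2262 CPM, and for 5 tuft cell genes, at 159 to 225 against 191 to 237 CPM. Single genes of these 2 lists went both ways. Of the 4 mucous neck genes, 2 rose, 1 fell and 1 was not called. Of 4 tuft cell genes tested, 1 rose, 2 fell and 1 was not called. Over all genes tested, 29.8% rose and 29.7% fell. In whole-epithelium RNA of this kind, fewer cells of a type and less RNA per cell cannot be told apart.

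The 10 genes lie on 10 chromosomes and are all protein coding (GENCODE M21, GRCm38), so no member is a neighbour of another. None of them has a stretch of 50 bases, the read length, in common with any other Klf gene's transcripts. Overlap with other genes is largest for Klf7. Of its 8131 exonic bases, 3196 are covered on the opposite strand by the long noncoding RNA gene Gm26649. No source used here gives the strand setting of the counting, so the Klf7 count is uncertain. For Klf3, 404 of 11243 exonic bases are covered by Gm20033 on the opposite strand. Reads from Klf3 and Klf7 cannot be separated from those partners here. Of the 11430 stretches of 50 bases in Klf3 transcripts, 398 occur in transcripts of other genes, Gm20033 among them. Klf4, Klf5 and Klf13 share 8, 4 and 11 such stretches with genes outside the family.

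Upstream sequence was found in RefSeq (GRCm38.p6) for 8 of the members, all except Klf5 and Klf10, and the 250 bases before the RefSeq start were searched on both strands. By the GENCODE annotation the whole Klf7 window lies inside the gene. Only 117 of the 250 bases lie outside the gene for Klf3, 221 for Klf2 and 243 for Klf6. The E-box CACGTG, the element that the clock factors CLOCK and BMAL1 and also Myc bind, was present in 3 of the 8, against 6.02% of 32851 promoters of the same length. It occurred once before Klf4, once before Klf6 and in 2 copies before Klf15; 0.429% of all promoters hold 2 or more copies. An AP-1-like element, TGANTCA with any base at N, occurred once, before Klf9 (6.75% of all promoters hold it), and there it overlaps a CACCC box. That copy reads TGAATCA, with A where the AP-1 consensus has G or C. The TEAD element GGAATG, found in 12.6% of all promoters, was in none of the 8, nor was the glucocorticoid receptor core TGTTCT (16.1% of all) or the CArG box (1.47% of all). The GC box GGGCGG was in 7 of the 8 (32.7% of all) and the short CACCC box in 6 of the 8 (52.0% of all), with both overlapping before Klf13 and Klf3. Both counts include Klf7, and the only CACCC box of Klf2, at position -19, lies inside the annotated gene. The cAMP element core TGACG was in 5 of the 8 (17.8% of all). Apart from Klf7, these promoters are GC-rich, at 59.6% to 78.4% GC against a median of 52.4% over all promoters. The shares over all promoters were not matched for GC content. Of these 8 members 6 were called in the comparison of the groups, where 59.5% of all genes were called. They include Klf13, which has neither an E-box nor an AP-1-like element in this window. Klf7 has neither as well, but its window is not upstream of the GENCODE gene. The 4 sequences with an E-box or AP-1-like element are shown with these elements in place, 5′ to 3′ on the strand of the gene, and capitals mark the elements. They are chr6:90462326-90462575 (plus strand, Klf15), chr4:55532476-55532725 (minus strand, Klf4), chr13:5861239-5861481 (plus strand, Klf6, ending where the annotated gene begins) and chr19:23140976-23141225 (plus strand, Klf9).
Klf15: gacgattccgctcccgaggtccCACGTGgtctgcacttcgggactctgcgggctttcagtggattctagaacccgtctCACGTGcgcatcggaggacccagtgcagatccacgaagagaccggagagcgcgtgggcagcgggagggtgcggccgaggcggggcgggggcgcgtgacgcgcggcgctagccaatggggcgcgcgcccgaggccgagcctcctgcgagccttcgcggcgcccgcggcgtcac
Klf4: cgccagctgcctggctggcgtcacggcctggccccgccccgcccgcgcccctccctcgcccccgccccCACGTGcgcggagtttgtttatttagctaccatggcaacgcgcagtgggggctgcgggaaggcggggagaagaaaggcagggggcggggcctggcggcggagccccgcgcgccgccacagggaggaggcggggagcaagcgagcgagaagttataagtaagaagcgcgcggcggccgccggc
Klf6: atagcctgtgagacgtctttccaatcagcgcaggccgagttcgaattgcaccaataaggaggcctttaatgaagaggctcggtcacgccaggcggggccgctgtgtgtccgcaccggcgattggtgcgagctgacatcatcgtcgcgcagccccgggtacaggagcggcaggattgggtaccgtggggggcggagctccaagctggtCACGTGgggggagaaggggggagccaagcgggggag
Klf9: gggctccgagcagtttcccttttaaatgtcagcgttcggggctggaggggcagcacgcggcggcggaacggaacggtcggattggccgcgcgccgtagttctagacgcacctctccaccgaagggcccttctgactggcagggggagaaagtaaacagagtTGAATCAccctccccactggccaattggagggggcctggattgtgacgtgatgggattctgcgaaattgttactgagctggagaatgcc

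Of the 10 members, 4 rose in Yap-activated tissue (Klf5, Klf6, Klf7 and Klf10), 4 fell (Klf4, Klf9, Klf13 and Klf15) and 2 did not pass the threshold (Klf2 and Klf3), by edgeR's quasi-likelihood test with Benjamini-Hochberg adjusted p below 0.05. Across all genes tested 59.5% were called, 29.8% higher and 29.7% lower, so the number of members called is not far from the share of all genes. The groups did not overlap at 8 of the 10 members, against 67.6% of all genes. The median log2 fold change was 0.20 for the members and 0.01 for all genes tested. What distinguishes the members from each other is the size and direction of the change, which ran from a 35.2-fold fall of Klf15 to a 5.57-fold rise of Klf6.

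**Figure D1:**
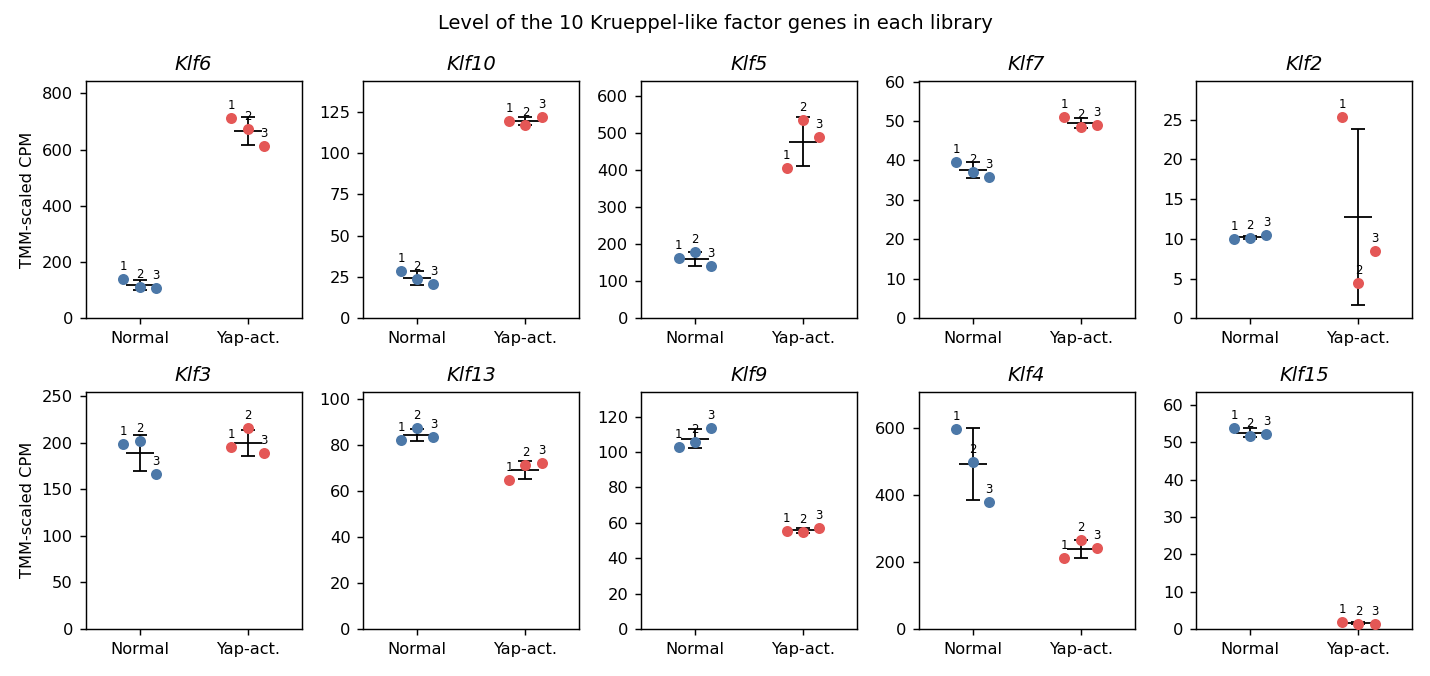
Level of each of the 10 Klf genes (TMM-scaled CPM, linear axes from 0) in the 3 Normal (blue) and 3 Yap-activated (red) libraries; digits are replicate numbers, and black bars give the mean ± SD. The groups are apart for every gene except Klf2 and Klf3, and Klf2 shows 1 Yap-activated library at 25.3 CPM, above all the others.

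Among the activators, Klf6, a widely expressed early response factor, rose most. Klf6 stood at 139.7, 112 and 106 CPM in Normal replicates 1 to 3 and at 711, 673 and 612 CPM in Yap-activated replicates 1 to 3. All Yap-activated libraries were more than 4 times above the highest Normal library. The rise of 2.48 on the log2 scale had an SE of 0.15 (edgeR adjusted p = 8.82e-06) and was larger in size than that of 89.5% of genes tested.

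Klf5, the factor known for proliferating epithelium, rose 2.98-fold. Klf5 stood at 161, 179 and 139.6 CPM in Normal and at 405, 535 and 489 CPM in Yap-activated replicates 1 to 3. Every Yap-activated library was higher than every Normal one, with replicate 2 highest in both groups. On the log2 scale the rise was 1.57 with an SE of 0.15 (edgeR adjusted p = 8.59e-05).

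Klf4, the factor known for arrest and surface differentiation, fell instead. Klf4 stood at 595, 499 and 379.7 CPM in Normal and at 211, 264 and 242 CPM in Yap-activated replicates 1 to 3. The groups did not overlap, and Normal was the more variable, with an SD of 108 around a mean of 491 CPM against 26.8 around 239 CPM. This 2.06-fold fall, -1.04 on the log2 scale with an SE of 0.18, had an edgeR adjusted p of 0.00181. Over the same libraries the summed level of 6 surface mucous genes was 43652 to 50985 CPM in Normal and 2370 to 3050 CPM in Yap-activated tissue. Of the 6, 4 were lower, 1 higher, 1 not called and none at 0, where 29.7% of all genes were lower. The part of the surface mucous shift in the Klf4 value was not tested.

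Klf7, a close relative of Klf6, changed much less than Klf6. Klf7 stood at 39.7, 37.1 and 35.8 CPM in Normal and at 51.0, 48.6 and 49.1 CPM in Yap-activated replicates 1 to 3. The ranges are narrow and do not overlap. Klf7 rose 1.32-fold, by 0.40 on the log2 scale with an SE of 0.09 (edgeR adjusted p = 0.00606), for a count that may include reads of Gm26649.

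Klf2, a factor best known in endothelium and lymphocytes, was dominated by 1 library. Klf2 stood at 9.99, 10.1 and 10.4 CPM in Normal and at 25.3, 4.39 and 8.46 CPM in Yap-activated replicates 1 to 3. Normal libraries were nearly equal, while Yap-activated replicate 1 lay above all Normal libraries and the other two lay below them. The difference on the log2 scale was 0.31 with an SE of 0.58 (edgeR adjusted p = 0.661), and -0.65 without Yap-activated replicate 1 (adjusted p = 0.0854). Markers of other cell types also varied among the Yap-activated libraries. The summed level of 9 myeloid genes was 134.7 to 138 CPM in Normal. In Yap-activated replicates 1 to 3 that sum was 1196, 356 and 830.2 CPM, with 7 of the 9 genes higher and none at 0. Single myeloid genes differed in the order of these libraries. Cd14 stood at 401, 209 and 226 CPM in Yap-activated replicates 1 to 3, and Cd68 at 9.46, 15.3 and 23.5 CPM. For 9 lymphoid genes the sums were 2.76 to 3.99 CPM in Normal and 10.4, 2.67 and 9.91 CPM in Yap-activated replicates 1 to 3, with 1 of 4 tested higher. For 10 endothelial genes they were 194 to 210.4 CPM and 65.9, 46.2 and 84.6 CPM, with 7 of the 10 lower and none at 0. Over all genes tested, 29.8% were higher and 29.7% lower. The part of myeloid, lymphoid and endothelial cells in the Klf2 value was not tested.

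Klf3, the CtBP-binding repressor, stood at 199, 202 and 167 CPM in Normal and at 195, 216 and 189 CPM in Yap-activated replicates 1 to 3. The groups overlapped, and their difference on the log2 scale, 0.08 with an SE of 0.12, did not pass (edgeR adjusted p = 0.577). Relative to the shift of all genes under each scaling, Klf3 stayed close to the median gene: with library totals alone it passed the threshold at 0.58, where the median of all genes was 0.50.

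The Sin3-recruiting members diverged. Klf10, first described as a gene induced early by TGF-beta, stood at 28.9, 23.8 and 20.6 CPM in Normal and at 119.4, 117 and 122 CPM in Yap-activated replicates 1 to 3. The Yap-activated libraries were nearly equal, with an SD of 2.38 CPM, and all were far above Normal. Klf10 rose 4.88-fold, by 2.29 on the log2 scale with an SE of 0.13 (edgeR adjusted p = 7.55e-06).

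Klf9, known as a target of glucocorticoid and thyroid hormone receptors, stood at 103, 106 and 114 CPM in Normal and at 55.6, 54.6 and 57.1 CPM in Yap-activated replicates 1 to 3. Its groups were tight and well separated. The fall was 1.93-fold, -0.95 on the log2 scale with an SE of 0.09 (edgeR adjusted p = 6.74e-05). Klf13, its close relative, stood at 82.1, 87.4 and 83.5 CPM in Normal and at 64.6, 71.1 and 72.0 CPM in Yap-activated replicates 1 to 3. That fall was small, 1.22-fold, or -0.29 on the log2 scale with an SE of 0.09 (edgeR adjusted p = 0.0257). The Klf13 difference stayed between -0.31 and -0.23 with any 1 library left out, but 3 of these 6 fits did not pass. Leaving out Normal replicate 2 gave -0.26 with an edgeR adjusted p of 0.0983, leaving out Normal replicate 3 gave -0.30 with 0.0627, and leaving out replicate 1 of the Yap-activated group gave -0.23 with 0.0731. Its direction turned with library totals alone (0.21, adjusted p = 0.128).

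Klf15, known for control of amino acid and glucose metabolism and as a glucocorticoid target, fell more than any other member. Klf15 stood at 53.9, 51.6 and 52.3 CPM in Normal and at 1.83, 1.26 and 1.43 CPM in Yap-activated replicates 1 to 3. These values rest on 1850, 2173 and 1653 reads in Normal and on 54, 53 and 77 reads in Yap-activated libraries. The Normal libraries were within a few percent of each other, with an SD of 1.16 CPM, and none of the Yap-activated libraries reached 2 CPM. The 35.2-fold fall, -5.14 on the log2 scale with an SE of 0.16, had an edgeR adjusted p of 5.37e-07 and was larger in size than that of 97.8% of genes tested. The summed parietal level fell over the same libraries from 24521 to 32433 CPM in Normal to 1004 to 1265 CPM, with 8 of 9 parietal genes lower and none at 0. Most of the remaining sum was Ezr, a cytoskeletal linker gene of many epithelia, at 650.2 to 959 CPM, while Atp4a, the proton pump gene that defines parietal cells, was at 16026 to 21784 CPM in Normal and at 19.1 to 26.7 CPM in Yap-activated libraries. Chief cell genes fell too, 5 of the 5 tested, and 5 of 6 enteroendocrine genes, where 29.7% of all genes tested fell. The part of these losses in the Klf15 value was not tested.

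Each Klf gene was also set against the others per length, as CPM per kb of exon. The length was that of all annotated exons joined, 3049 bases for Klf4 and 11243 for Klf3. Which transcripts were in use was not determined. Without division by length, Klf3 at 189 CPM in Normal lay below Klf4 at 491 CPM but above Klf5 at 160 CPM. The order and the shares that follow thus depend on the length taken. In Normal tissue Klf4 was the most abundant member at 161 ± 35.4 CPM per kb (SD, n = 3), followed by Klf5 at 30.7 ± 3.78, Klf6 at 27.2 ± 4.07, Klf9 at 22.3 ± 1.14, Klf15 at 18.8 ± 0.417, Klf3 at 16.8 ± 1.74, Klf13 at 11.2 ± 0.365, Klf10 at 5.85 ± 0.992, Klf2 at 5.51 ± 0.123 and Klf7 at 4.62 ± 0.248. The neighbours Klf5 and Klf6, and Klf10 and Klf2, overlapped between libraries, while the other neighbours in that order did not. In Yap-activated tissue the order began with Klf6 at 152 ± 11.4 CPM per kb, Klf5 at 91.6 ± 12.7, Klf4 at 78.3 ± 8.78 and Klf10 at 28.6 ± 0.568 (SD, n = 3). It went on with Klf3 at 17.8 ± 1.25, Klf9 at 11.6 ± 0.261, Klf13 at 9.19 ± 0.534, Klf2 at 6.89 ± 6.01 and Klf7 at 6.09 ± 0.156, and ended with Klf15 at 0.541 ± 0.104. There Klf5 overlapped Klf4, and Klf2 overlapped both Klf13 and Klf7.

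The make-up of the family differed between the groups. Klf4 made up 52.6 ± 4.28% of the summed level per kb of the 10 genes in Normal libraries but 19.5 ± 1.74% in the Yap-activated ones (SD, n = 3). Klf6 went from 8.95 ± 0.598% to 37.7 ± 2.84%, and Klf5 from 10.2 ± 1.07% to 22.7 ± 2.66% (SD, n = 3). Klf10 went from 1.92 ± 0.0828% to 7.11 ± 0.398%, while Klf15 went from 6.27 ± 0.855% to 0.135 ± 0.0291% (SD, n = 3). The summed level itself was 345, 309 and 259 CPM per kb in Normal and 396, 419 and 391 CPM per kb in Yap-activated replicates 1 to 3. Together the 10 genes held 0.0952% to 0.114% of all counts in Normal and 0.212% to 0.237% in Yap-activated libraries. These percentages are of unscaled library totals, with which the median log2 fold change of all genes was also 0.50.

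**Figure D2:**
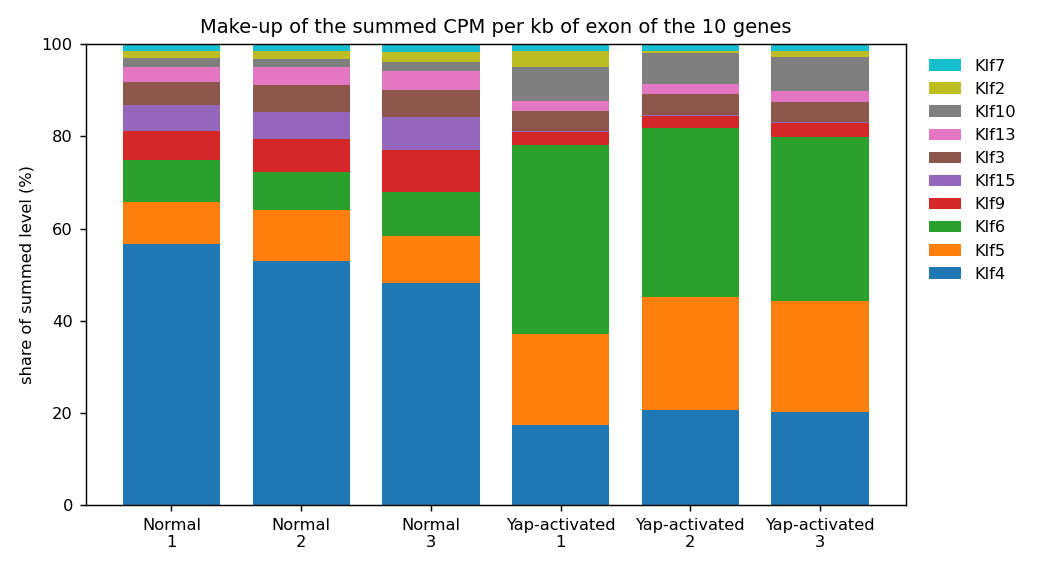
Share of each gene in the summed level of the 10 Klf genes (CPM per kb of exon, in %) for each library, stacked from the most abundant gene in Normal at the bottom. Klf4 (blue) fills 48.1% to 56.7% of each Normal bar and 17.5% to 20.6% of each Yap-activated bar, where Klf6 (green) is the largest part.

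Ratios of reads between pairs of members within a library do not depend on how libraries are scaled, and 4 pairs were compared. Reads of Klf5 relative to Klf4 stood at 0.271, 0.358 and 0.368 in Normal and at 1.92, 2.03 and 2.02 in Yap-activated replicates 1 to 3. The order of the 2 genes in reads was thus turned around in every library, by 2.59 on the log2 scale or 6.04-fold. Klf7 relative to Klf6 stood at 0.284, 0.331 and 0.337 in Normal and at 0.0717, 0.0721 and 0.0802 in Yap-activated libraries, a log2 difference of -2.08. Klf13 relative to Klf9 stood at 0.796, 0.825 and 0.734 in Normal and at 1.16, 1.30 and 1.26 in Yap-activated libraries, a log2 difference of 0.66. For each of these 3 pairs the groups did not overlap, and the exact 2-sided permutation p was 0.1, the smallest that 3 against 3 can give (adjusted p = 0.133 over the 4 pairs). Klf2 relative to Klf4 differed by 0.97 on the log2 scale with overlapping groups (exact 2-sided permutation p = 0.4, adjusted p = 0.4).

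**Figure D3:**
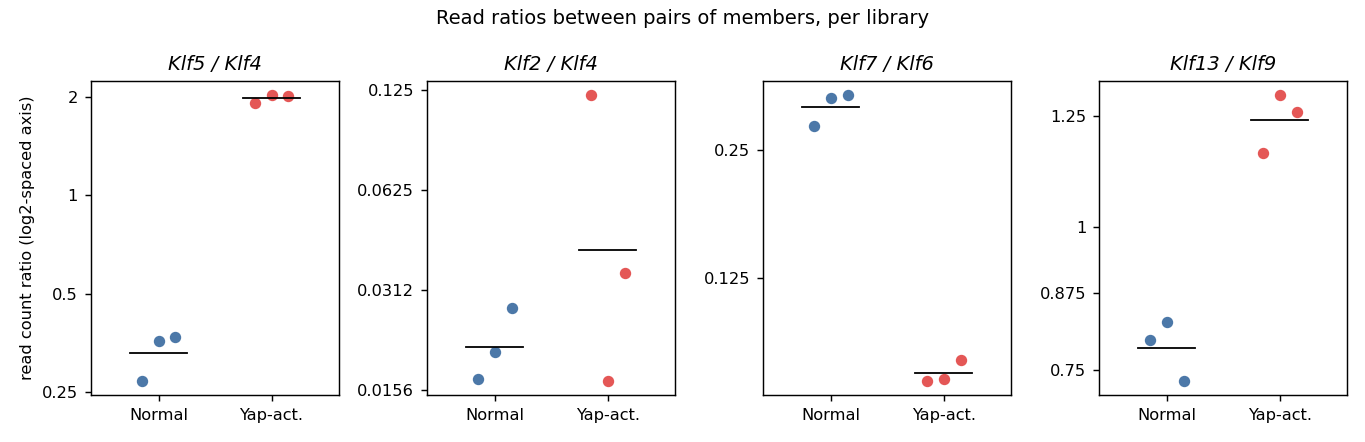
Ratio of read counts between 2 Klf genes in each library (log2-spaced axes that do not start at 0), with Normal in blue, Yap-activated in red and a bar at the geometric mean. The ratio of Klf5 to Klf4 lies below 0.4 in all Normal libraries and above 1.9 in all Yap-activated ones; that of Klf2 to Klf4 overlaps between the groups.

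The other Klf and Sp genes showed few calls. Of 5 other Klf genes tested, 1 rose and 4 did not pass. Of 5 Sp genes tested, 1 fell and 4 did not pass, where 59.5% of all genes were called. Some of these genes were low. Klf8, Klf12 and Sp5 averaged 2.36, 3.29 and 2.39 CPM in Normal, with SEs of 0.32, 0.30 and 0.50. Sp1 and Sp3 averaged 67.8 and 67.4 CPM there. The groups did not overlap at Klf8, though it was not called. The part of low counts in the missing calls was not tested. Klf11, the closest relative of Klf10, rose from 8.98 ± 2.43 to 16.5 ± 1.93 CPM (SD, n = 3), with a log2 fold change of 0.88 (SE 0.21, adjusted p = 0.00782, edgeR quasi-likelihood test), below the 2.29 of Klf10. Klf16, the other Sin3-type gene tested, was at 0.29, and Klf12 and Klf8, relatives of Klf3, were at 0.33 and -0.78 (adjusted p = 0.117, 0.373 and 0.0678, edgeR). Klf1, the erythroid factor, was at -0.43 and under 1 CPM in every library. Klf14 and Klf17 were too low to test. With no filter on low counts, and without Normal replicate 3, 1 of the other Klf genes was called lower. Sp1 and Sp3, ubiquitous factors that bind the same GC-rich elements, were at 0.11 and 0.01, and Sp2 and Sp5 at -0.21 and 0.94, with none of these 4 past the threshold. Sp4 fell from 12.95 ± 0.945 to 5.08 ± 0.210 CPM (SD, n = 3), a log2 fold change of -1.35 (SE 0.15, adjusted p = 1.61e-04, edgeR). Klf16 was called higher without Yap-activated replicate 3 (0.40, edgeR adjusted p = 0.0312). With library totals alone, 3 of the other Klf genes and 3 of the Sp genes were called higher, as the median of all genes moved up.

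**Figure D4:**
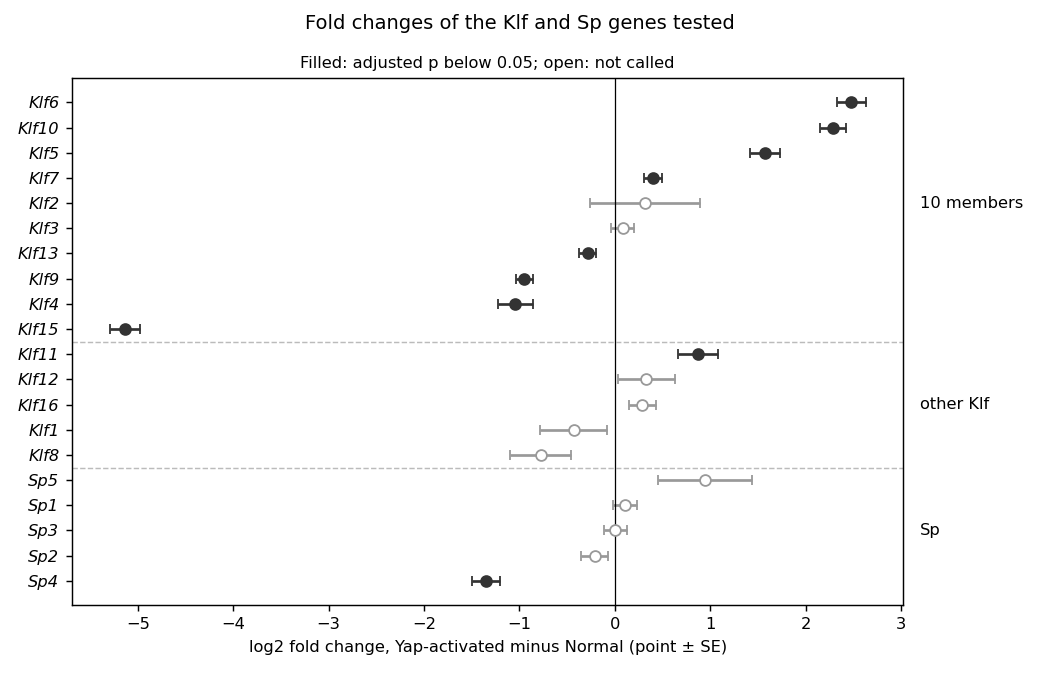
Log2 fold change (Yap-activated minus Normal, point ± SE) of the 10 members, 5 other Klf genes and 5 Sp genes. Members run from 2.48 for Klf6 to -5.14 for Klf15, whereas the other Klf and Sp genes lie between 0.94 (Sp5) and -1.35 (Sp4).

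Partners of the Klf proteins were called about as often as genes in general, where 29.8% were higher and 29.7% lower. Of 12 coactivator and corepressor genes, 3 rose, 4 fell and 5 did not pass, with a median log2 fold change of -0.03. The histone deacetylase genes Hdac1 and Hdac3 rose by 0.96 and 0.84 and Sap30, a subunit of the Sin3 complex, by 1.77, while the acetyltransferase gene Kat2b and the corepressor gene Ncor1 fell, at -0.81 and -0.50. Sin3a, the scaffold gene of the Sin3 complex, and Ctbp1, the gene of the Klf3 partner, also fell, at -0.33 and -0.39 (edgeR adjusted p = 0.0268 and 0.0223). Neither passed without Normal replicate 2 or 3 or the first Yap-activated library (edgeR adjusted p from 0.0579 to 0.0846), nor did Ctbp1 without Yap-activated replicate 3 (0.0763), and both turned with library totals alone, to 0.17 and 0.10. Of 11 genes of ubiquitin ligases and deubiquitinases that act on Klf proteins, 3 rose, 3 fell and 5 did not pass, with a median of 0.09, again near the share of all genes. Wwp1, a WW-domain ligase known to act on Klf5 and Klf2, fell from 132 ± 17.04 to 42.2 ± 4.001 CPM (SD, n = 3; log2 fold change -1.65), and Smurf1, another ligase of that family, rose from 56.9 ± 5.87 to 165 ± 32.3 CPM (1.53), while Btrc was at -0.66. Of 7 genes of the ERK5 and MEF2 route that induces Klf2 and Klf4, Mapk7, the ERK5 gene, rose by 0.97, Map2k5, its kinase, and Mef2c were at -0.68 and -0.98, and Mef2d, the most abundant, was at 0.22 and not called. With library totals alone these 3 lists had 8, 8 and 4 genes higher and 0, 1 and 0 lower, and Kat2b, Ncor1, Btrc, Map2k5 and Mef2c were not called. Single libraries also moved these counts. The cofactor genes lower went from 4 to 2 without Normal replicate 2 or 3 or replicate 1 of the Yap-activated group, and the ligase genes higher from 3 to 1 without Normal replicate 1. The fall of Mef2c did not pass without replicate 1 or 3 of Normal or replicate 1 or 2 of the Yap-activated group (edgeR adjusted p from 0.0566 to 0.0851), and Mef2d passed without Yap-activated replicate 3 (0.0489).

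Genes of 2 inputs known for Klf9 and Klf15 mostly fell, where 29.7% of all genes tested fell and 29.8% rose. Of 11 tested glucocorticoid receptor and target genes, 7 fell, 1 rose and 3 did not pass, at a median log2 fold change of -0.92 against 0.01 over all genes. Nr3c1, the receptor gene, was at -0.92, Tsc22d3, a classical target, at -2.37 and Cdkn1c at -2.70. Sgk1, the most abundant, went from 405 ± 29.3 CPM in Normal to 164, 32.5 and 81.1 CPM in Yap-activated replicates 1 to 3 (log2 fold change -2.13), and Ddit4 rose by 2.71. Of 19 clock genes, 12 fell, 5 rose and 2 did not pass, at a median of -0.87. Tef, an output gene of the clock, was at -2.04, and Bhlhe40, a repressor gene of the clock, at 2.98. Per1, which both lists hold, was at -0.71, a call lost with library totals alone and without Normal replicate 1 (adjusted p = 0.347 and 0.0552, edgeR). No label gives the time of day at which tissue was taken, and its part in these values was not tested. With library totals alone, 7 of the clock genes were lower.

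Genes known to be induced along with Klf6 and Klf10 mostly rose, where 29.8% of all genes tested were higher and 29.7% lower. All 19 of the immediate early genes listed were higher, at a median log2 fold change of 2.62. Dusp1 had a log2 fold change of 4.82, Ier3 of 4.20 and Fos of 3.11, while Jun, the most abundant, went from 130 ± 34.9 CPM in Normal to 192, 591 and 454 CPM in Yap-activated replicates 1 to 3 (log2 fold change 1.67). Of 13 genes of TGF-beta signaling, the input known for Klf10, 9 rose and 4 did not pass, at a median of 0.89. The ligand genes Tgfb1 and Tgfb3 rose by 1.78 and 2.08, Tgif1, a corepressor gene, by 2.57 and Skil by 1.37.

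Genes reported as targets of single members were followed too; a target list of this kind holds genes that many factors control. The lists are short, and 59.5% of all genes were called, 29.8% higher and 29.7% lower. Of 8 reported targets of Klf4, which fell, 7 rose and none fell, at a median of 1.19. The list pools genes that Klf4 is known to activate and genes that it is known to repress, so it has no single direction. Activated ones that rose were Cdkn1a at 1.51, Cdkn1b at 0.74, Krt19 at 1.04 and Alpi at 1.71. Repressed ones that rose were Birc5 at 2.09, Ccnd1 at 1.23 and Ccne1 at 1.15. Odc1 was at 0.069 and not called. Of 7 reported targets of Klf5, which rose, 5 rose, among them Egfr at 2.23 and Birc5, and Fgfbp1 fell by 1.66, while Pdgfa, at -0.31, passed in a fit without Normal replicate 3 (edgeR adjusted p = 0.0318) and not otherwise. Of 5 reported targets of Klf15 in amino acid metabolism, 3 fell and 2 did not pass, where 29.7% of all genes fell. Those not called were Prodh and Tat. Prodh, at 14.0 CPM in Normal and 11.6 CPM in Yap-activated libraries on average, was at -0.28 (edgeR adjusted p = 0.212). Tat, at 0.62 and 0.34 CPM on average, was at -0.88 (edgeR adjusted p = 0.474). The alanine aminotransferase genes Gpt and Gpt2 had log2 fold changes of -3.71 and -5.29, and Bcat2, the mitochondrial branched-chain aminotransferase gene, went from 366 ± 16.7 to 60.6 ± 3.60 CPM (SD, n = 3; -2.60). Of 5 reported targets of Klf2 in endothelium and lymphocytes, 2 fell, 1 rose and 2 did not pass, and none was higher with limma voom or with a filter of 1 CPM in 3 libraries. Thbd, the thrombomodulin gene, and Tek, an endothelial receptor gene, fell by 1.75 and 1.48 on the log2 scale.

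**Figure D5:**
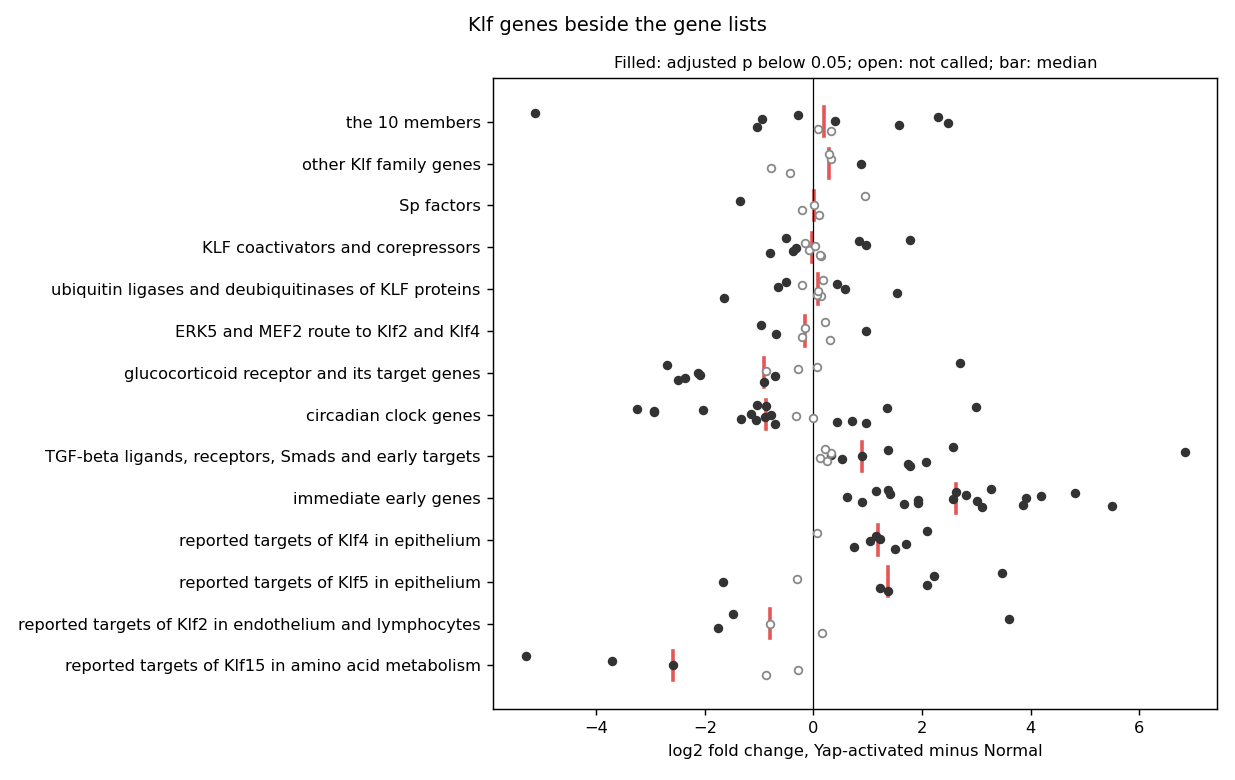
Log2 fold change (Yap-activated minus Normal) of the 10 Klf genes and of each listed gene that was tested, with filled points for genes past the threshold and a red bar at each list's median. Immediate early genes all lie above 0 at a median of 2.62, while the 10 members spread on both sides of 0.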

How the data were processed

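The deposited file gives raw read counts for 6 libraries, as whole numbers by gene symbol. Per the labels' protocols, a stranded mRNA kit was used and read ends were 50 bp. The submitters' processing notes name STAR 2.4.2a and DESeq2, with GRCm38 (mm10) as the build and no role for any of them. No source used here gives the counting program or its strand setting.

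The whole table was analysed in R 4.3.3 with edgeR 4.0.16: filterByExpr with the groups (minimum count 10), TMM scaling and robust quasi-likelihood fits, tested for the Yap-activated minus Normal difference. P-values were Benjamini-Hochberg adjusted over all 14600 genes tested (threshold 0.05). Each SE was derived from the log2 fold change and its F statistic. P-values measure the spread between libraries, which may be technical, since separate animals are not stated. The test was also run on simulated counts, and that outcome is not reported here. The 6 libraries were checked and none is a copy of another.

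The members and lists were chosen with earlier results of these data known. Named are the members, the other Klf and Sp genes tested, and in each list up to 3 called genes with the smallest p and the most abundant. Chosen outside that rule, after their values were seen, were Hdac3, Sin3a, Ctbp1, Skil, Ddit4, Per1, Prodh, Tat, Alpi, Ccnd1, Ccne1 and Odc1. Exon lengths and overlaps came from GENCODE M21 and upstream sequences from RefSeq GRCm38.p6. Some genes that the rule names are not reported here. Protein sequences, planned at the start, were not used here. Alternatives included DESeq2 1.42.0 and limma 3.58.1 (voom).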

Additional observations from a re-analysis of the deposited data

How the results depend on the processing

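The 10 members were refitted under 17 alternatives, giving 170 results, of which 161 kept their direction and their side of the threshold, 3 lost their call, 1 gained one and 5 turned direction. The numbers of members called stayed at 4 higher and 4 lower, except with library totals alone (5 higher, 3 lower) and in 3 of the fits that leave out 1 library (3 lower each). Klf4, Klf5, Klf6, Klf7, Klf9, Klf10 and Klf15 kept their calls under all 17. With library totals alone the median of all genes moved from 0.01 to 0.50 and 7522 genes were called higher and 2299 lower, against 4345 and 4337 with TMM. In that setting Klf13 turned to 0.21, Klf1 to 0.071, Sin3a to 0.17, Ctbp1 to 0.10, Sp2 to 0.28 and Pdgfa to 0.18. Klf2 turned to -0.18 with limma voom. Leaving out 1 library in turn gave -0.65 to 0.71 for Klf2, -0.0067 to 0.13 for Klf3, -0.017 to 0.19 for Sp1 and -0.080 to 0.10 for Sp3. For other turns and lost calls the cause was not tested.

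Replicate numbers are shared by the groups, but deviations of same-numbered libraries correlated at only 0.04, 0.003 and 0.07. Normal replicates 1 and 3 correlated best with the Yap-activated library of the same number. Normal replicate 2 correlated best with Yap-activated replicate 1 (0.07). All these correlations were weak, so the numbers are not taken to pair the libraries. With the replicate number as a block, 4239 genes were higher and 4322 lower, the members stayed at 4 and 4, and Klf2 was at -0.056. For the 4 pair ratios, at 2.59, 0.97, -2.08 and 0.66, a block of this kind cannot change the mean difference with 3 libraries per group. It is therefore no check of them. With no filter on low counts, 1 Sp gene was called higher and 2 lower. For 55 of the other named genes, 899 of 934 results kept direction and side. Depth limits Klf15 in Yap-activated libraries, where it rests on 53 to 77 reads.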
